A study of Arabidopsis thaliana with 19 samples.

Results

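The comparison asked where transcript levels in triploid Arabidopsis thaliana seedlings with an excess of paternal genomes (3xp) left the halfway point between tetraploid and diploid seedlings. Its members were chosen by label and comprised 14 of the 19 seedlings of the series, namely 5 paternal-excess triploids (3xp), 5 tetraploids (4x) and 4 diploids (2x). The other 5 were maternal-excess triploids (3xm), which share the estimate of the spread and were compared with 3xp and with the midpoint. All seedlings were 2 weeks old, were raised in a growth chamber on Murashige and Skoog medium, and carried genomes of 1 species. No treatment was labelled, and the accession, the parents and the line of each seedling were not given in the sources used here, so it is not known that these 2x and 4x seedlings match the parents of the triploids. Each seedling gave 1 Affymetrix ATH1 array of 22810 probe sets, of which 22746 were not controls and were tested.

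In a polyploid series of 1 species, every gene gains copies together, and an additive gene keeps a level in a triploid that lies halfway between the levels at 2 and 4 genome copies. A level off that midpoint is called non-additive, and a level beyond both even-ploidy groups is called transgressive. Triploids of Arabidopsis come in 2 reciprocal kinds. Paternal excess is known for prolonged proliferation of the endosperm, the nutritive tissue of the seed, and maternal excess for its early end, so the seedlings of both kinds grow out of differing seeds.

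The departure of a probe set was the 3xp mean minus the average of the 4x and 2x group means on the log2 scale, and it was called where limma gave an adjusted p under 0.05 over all 22746 probe sets. Of these, 58 were called, or 0.255%. The 3xp seedlings were higher in 50 of them (0.22%) and lower in 8 (0.0352%). At an unadjusted p under 0.05 the counts were more even, with 799 higher and 916 lower, 1715 in all against 1137.3 expected by chance, and the median difference over all probe sets was −0.00358. The rises spanned 0.42 to 2.11 log2 units with a median of 0.78, and the falls −0.83 to −0.38 with a median of −0.45. In each of the 50 the 3xp mean lay above both the 4x and the 2x mean, and in each of the 8 below both. Over all probe sets 30.3% of 3xp means lay above both and 30.7% below both. The choice of the 58 by their distance from the midpoint favours means beyond both groups, so these counts are no test of transgressive levels.

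**Figure D1:**
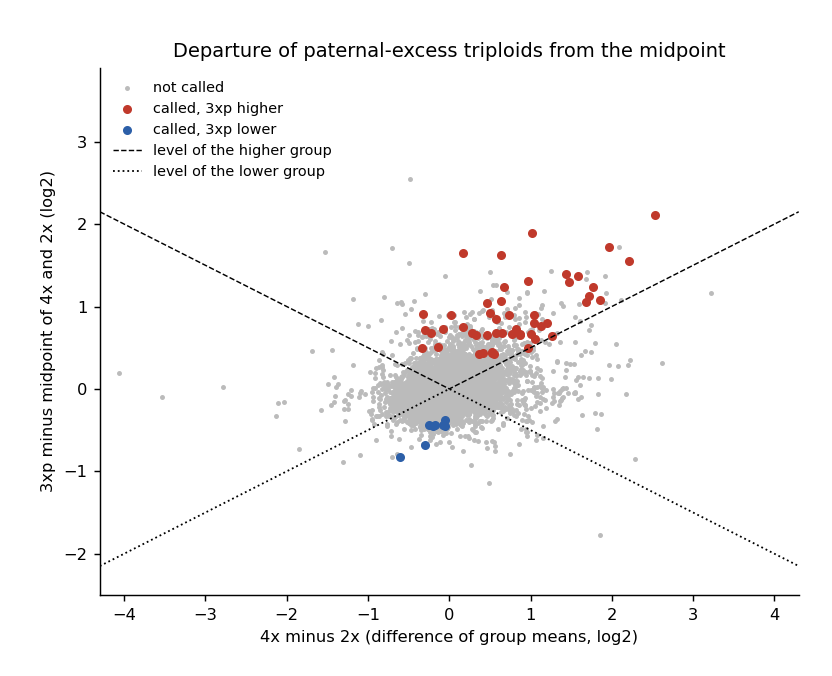
Each point is 1 of 22746 probe sets, with the difference 4x minus 2x on the horizontal axis and the 3xp mean minus the midpoint on the vertical axis (both log2). The 50 called higher (red) lie above the dashed line that marks the level of the higher of the 4x and 2x groups. The 8 called lower (blue) lie below the dotted line of the lower group, and probe sets not called are grey. The choice of the called probe sets by their distance from the midpoint favours these positions.

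The number of calls rested on single seedlings. It was 17 without seedling 3xp 1, 26 without 3xp 2 or 3xp 3, 31 without 4x 3, 34 without 2x 1 and 37 without 2x 3 or 4x 5, and it was 77 without the maternal-excess seedling 3xm 4. Of the 58, 14 were called in each of the 19 omissions. The count also depended on what halfway means: 30 probe sets (0.132%) were called against the midpoint of the unlogged levels, 23 higher and 7 lower, and 29 of these were among the 58. The log of a mean of unlogged levels is never below the mean of the logs, and where 4x and 2x lay far apart the departure was mostly smaller.

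**Figure D2:**
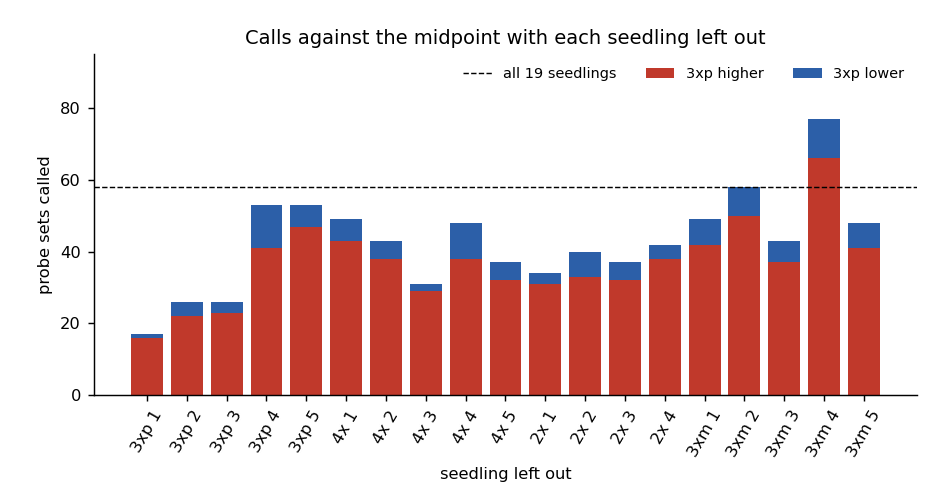
Bars give the number of probe sets called against the midpoint when the seedling on the horizontal axis is left out, split into 3xp higher (red) and 3xp lower (blue), and the dashed line gives the 58 called with all 19 seedlings. The counts lie between 17 without 3xp 1 and 77 without 3xm 4.

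The platform annotation gave 1 gene to 26 of the 58 probe sets, several genes to 1 and listed no gene for 31. The 26 named genes, 24 higher and 2 lower, were spread over all 5 chromosomes, with 6 each on chromosomes 1, 2 and 3, 3 on chromosome 4 and 5 on chromosome 5. The 12 largest rises were taken by rule, and the other 12 were named because they complete the set, after their values were seen.

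The highest named departure was that of AT3G15450, an aluminium-induced protein whose transcript is known to build up in darkness and under sugar shortage. Its levels were 9.31, 9.75, 10.68, 9.63 and 10.05 in the 3xp seedlings, against 9.10, 9.61, 8.34, 9.29 and 8.86 in the 4x seedlings and 5.57, 6.83, 5.78 and 7.85 in the 2x seedlings. All 3xp seedlings were above every 2x seedling, and they overlapped with 4x, where 1 seedling exceeded the lowest 3xp level. The gene was 2.11 ± 0.346 log2 units above the midpoint (± SE, limma adjusted p = 0.0128), a fold of 4.32. AT2G20670, a protein of the DUF506 family, followed the same order, with 9.74, 9.57, 9.88, 9.51 and 8.86 in 3xp, 9.59, 9.30, 8.25, 9.42 and 8.79 in 4x and 6.63, 6.84, 6.35 and 7.61 in 2x. The 3xp and 4x seedlings overlapped and both lay above all 2x seedlings. It was 1.55 ± 0.245 above the midpoint (adjusted p = 0.0103). Both genes have 4x levels far above 2x, and against the midpoint of unlogged levels their departures were 1.60 and 1.12, with an adjusted p of 0.0754 for each. Both were called in every omission of a seedling.

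STZ, a zinc finger protein that represses transcription in salt, cold and drought responses, stood at 5.87, 6.66, 7.0, 5.86 and 7.58 in the 3xp seedlings, against 5.87, 5.41, 4.68, 5.35 and 5.11 in 4x and 5.13, 4.74, 4.39 and 4.35 in 2x. The 3xp seedlings varied among themselves by more than the other groups did (SD 0.741 in 3xp, 0.434 in 4x and 0.364 in 2x), and the lower 3xp seedlings met the highest 4x seedling. STZ rose by 1.62 ± 0.288 (adjusted p = 0.0201) and was also called against the unlogged midpoint (1.70, adjusted p = 0.0247). The call of STZ ended without 3xp 2 (adjusted p = 0.0622) or 3xp 3 (adjusted p = 0.0732). It also ended when the replicate number was fitted as a block.

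AT3G10020, a protein of unknown function whose transcript is known to rise under low oxygen, was separated from both other groups. It stood at 8.77, 8.80, 9.39, 8.78 and 8.35 in 3xp, against 8.13, 8.17, 7.67, 8.28 and 7.70 in 4x and 6.55, 7.22, 6.83 and 7.49 in 2x. Each 3xp seedling was above each 4x and 2x seedling, though by only 0.0651 at the closest. It was 1.31 ± 0.168 above the midpoint (adjusted p = 0.00222), 1.24 above the unlogged midpoint (adjusted p = 0.0072), and was called under every alternative. AT1G05575, a small protein known for its induction in rapid stress responses, stood at 5.09, 5.25, 5.42, 5.20 and 5.44 in 3xp, 5.11, 4.67, 4.19, 4.56 and 4.50 in 4x and 4.46, 3.82, 4.16 and 3.97 in 2x. Only seedling 4x 1 reached into the 3xp range. Its departure of 0.93 ± 0.138 (adjusted p = 0.00959) was likewise called under every alternative.

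SIS, a serine-rich protein named for its induction by salt, stood at 10.17, 10.34, 9.42, 9.90 and 8.81 in 3xp, against 9.22, 9.54, 9.80, 9.43 and 8.90 in 4x and 7.20, 7.53, 8.05 and 7.64 in 2x. Here 3xp and 4x interleaved, and 2x lay below both. SIS was 1.24 ± 0.252 above the midpoint (adjusted p = 0.0444), but 16 of the 19 omissions ended the call (adjusted p between 0.0529 and 0.168), as did the unlogged midpoint (1.04, adjusted p = 0.13). AT4G05070 and AT4G28240 belong to the wound-responsive protein family. AT4G05070 stood at 10.18, 10.49, 10.32, 10.29 and 9.75 in 3xp, 10.08, 10.27, 9.88, 10.17 and 9.63 in 4x and 8.49, 9.01, 8.86 and 9.17 in 2x. The 3xp and 4x seedlings overlapped above those of 2x, and the rise over the midpoint was 0.76 ± 0.131 (adjusted p = 0.0187). AT4G28240 averaged 10.06 ± 0.31 in 3xp, 9.71 ± 0.20 in 4x (SD, n = 5 each) and 9.06 ± 0.22 in 2x (SD, n = 4), a rise of 0.68 ± 0.138 (adjusted p = 0.0429). The call of AT4G05070 ended without 3xp 1, 3xp 2 or 3xp 3 (adjusted p between 0.0543 and 0.0634), and that of AT4G28240 in 15 of the 19 omissions (adjusted p between 0.0568 and 0.153). AT2G41410, a calmodulin-like protein with calcium-binding EF hands, averaged 9.83 ± 0.18 in 3xp, 9.40 ± 0.20 in 4x and 8.93 ± 0.17 in 2x. Its departure was 0.66 ± 0.111 (adjusted p = 0.0163), and the call ended without 3xp 1 (adjusted p = 0.0543).

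**Figure D3:**
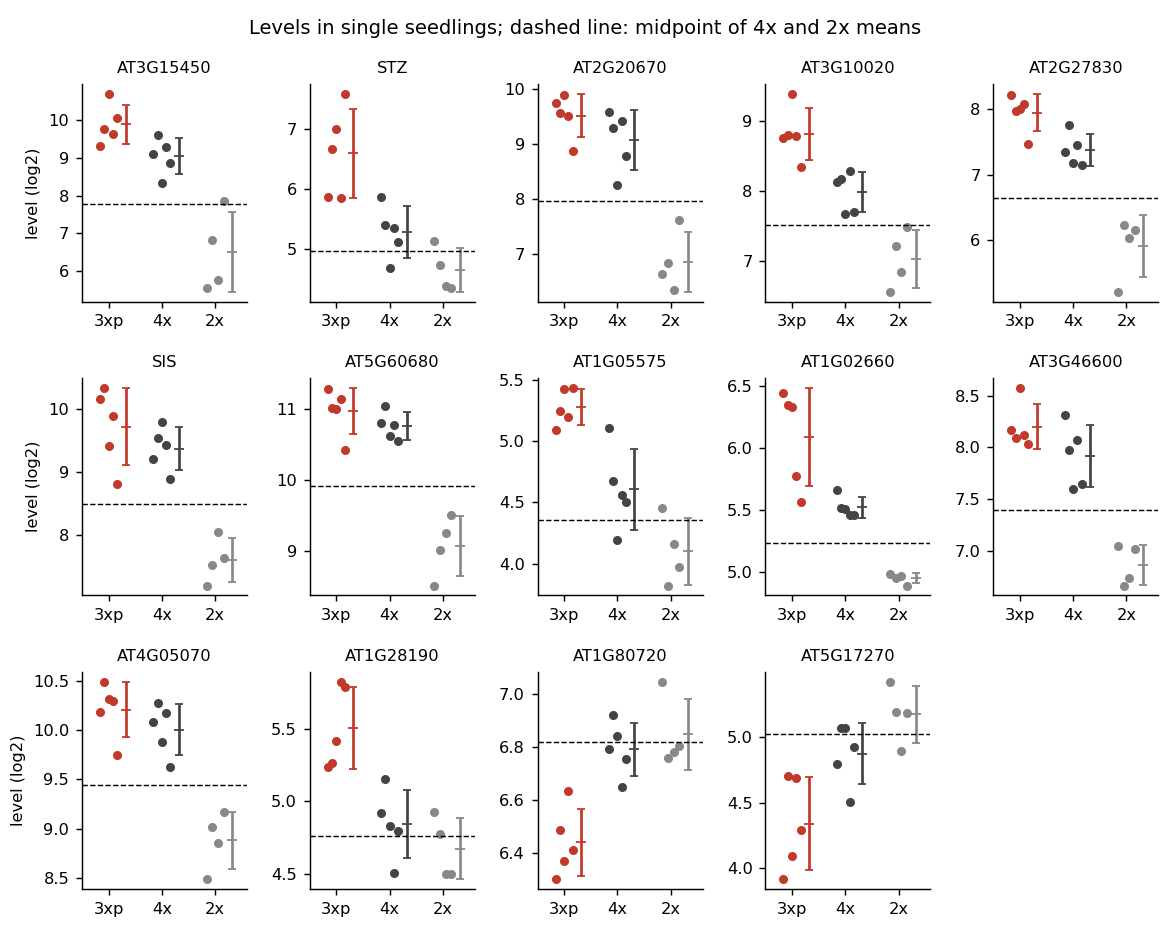
Points are log2 levels in single seedlings of the 14 named genes with the 12 largest rises and the 2 falls, for 3xp (red), 4x (dark grey) and 2x (light grey), with bars at the mean ± SD and a dashed line at the midpoint of the 4x and 2x means. The 3xp seedlings of AT3G10020 and AT1G28190 lie above all 9 seedlings of 4x and 2x and those of AT1G80720 below them, while those of SIS, AT5G60680 and AT4G05070 share the range of 4x.

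ARL, the ARGOS-like protein that promotes cell expansion in lateral organs, stood at 9.30, 9.24, 9.36, 9.46 and 8.88 in 3xp, against 8.59, 8.81, 8.53, 8.68 and 8.74 in 4x and 8.63, 9.05, 8.69 and 8.87 in 2x. Of the 3xp seedlings 4 lay above all 9 seedlings of 4x and 2x, and 3xp 5 lay within 2x. ARL was 0.51 ± 0.0937 above the midpoint (adjusted p = 0.0257) and its 4x and 2x means differed little, so that the unlogged midpoint gave the same 0.51 (adjusted p = 0.0386). In 7 omissions its call ended (adjusted p between 0.0564 and 0.0832). AT1G02660, a plastid lipase, stood at 6.44, 6.34, 6.33, 5.77 and 5.56 in 3xp, 5.66, 5.52, 5.51, 5.46 and 5.46 in 4x and 4.98, 4.95, 4.97 and 4.89 in 2x. Only 3xp 5 overlapped with 4x, and all 3xp and 4x seedlings lay above 2x. It was 0.85 ± 0.156 above the midpoint (adjusted p = 0.0236), a call that ended without 3xp 1, 3xp 2 or 3xp 3 (adjusted p between 0.0768 and 0.0874). TET8, a tetraspanin of the cell membrane and of secreted vesicles, averaged 9.73 ± 0.14 in 3xp, 9.45 ± 0.36 in 4x and 8.67 ± 0.07 in 2x, a departure of 0.67 ± 0.126 (adjusted p = 0.0292) that ended in 8 omissions (adjusted p between 0.0526 and 0.0853).

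AT3G46600, a GRAS-family transcription regulator, was at 8.20 ± 0.22 in 3xp, 7.92 ± 0.30 in 4x and 6.87 ± 0.19 in 2x, 0.80 ± 0.157 above the midpoint (adjusted p = 0.0364). AT3G56880, a VQ motif protein, was at 9.20 ± 0.20, 9.05 ± 0.37 and 8.04 ± 0.08 in those groups (difference 0.66, adjusted p = 0.0364). AT2G24240, a protein with a BTB/POZ domain, departed by 0.43 (adjusted p = 0.0322), and AT5G54940, of the SUI1 translation initiation factor family, by 0.45 (adjusted p = 0.0402). Each of these 4 calls ended in more than 9 of the 19 omissions, since AT3G46600 lost its call in 13 omissions (adjusted p up to 0.12), AT3G56880 in 15 (up to 0.121), AT2G24240 in 10 (up to 0.0947) and AT5G54940 in 13 (up to 0.144). None of the 4 was called against the unlogged midpoint.

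The remaining 8 named rises are given without a role. AT2G27830 stood at 8.22, 7.96, 8.0, 8.08 and 7.47 in 3xp, 7.34, 7.76, 7.18, 7.46 and 7.15 in 4x and 5.21, 6.23, 6.04 and 6.16 in 2x. Seedling 3xp 5 alone fell within the 4x range, and 2x lay well below. Its departure of 1.30 ± 0.163 (adjusted p = 0.00222) was called under every alternative, and so was that of AT5G24890 (0.73 ± 0.112, adjusted p = 0.0101). AT5G60680, of the DUF584 family, averaged 10.97 ± 0.33 in 3xp, 10.76 ± 0.19 in 4x and 9.08 ± 0.42 in 2x, 1.05 ± 0.164 above the midpoint (adjusted p = 0.0101). AT1G23710, of the DUF1645 family, had nearly equal means of 6.17 in 3xp and 6.15 in 4x, against 4.89 in 2x (difference from the midpoint 0.65, adjusted p = 0.0128). The call of AT1G23710 ended without 3xp 1 (adjusted p = 0.0536), and the unlogged midpoint ended both this call (0.0533) and that of AT5G60680 (0.0514). AT3G19030 also had near-equal means of 10.62 in 3xp and 10.61 in 4x, against 9.65 in 2x (0.49, adjusted p = 0.0461). AT1G28190 (0.75, adjusted p = 0.0446), AT3G15760 (0.72, adjusted p = 0.0444) and AT4G29780 (0.68, adjusted p = 0.0403) complete the set. Between 13 and 16 omissions ended the calls of AT3G19030 (adjusted p up to 0.177), AT1G28190 (up to 0.125), AT3G15760 (up to 0.144) and AT4G29780 (up to 0.147). Of all 24 named rises, STZ, AT3G10020, AT1G05575, AT2G41410, ARL, AT1G02660, AT2G27830 and AT5G24890 were the 8 still called against the unlogged midpoint.

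**Figure D4:**
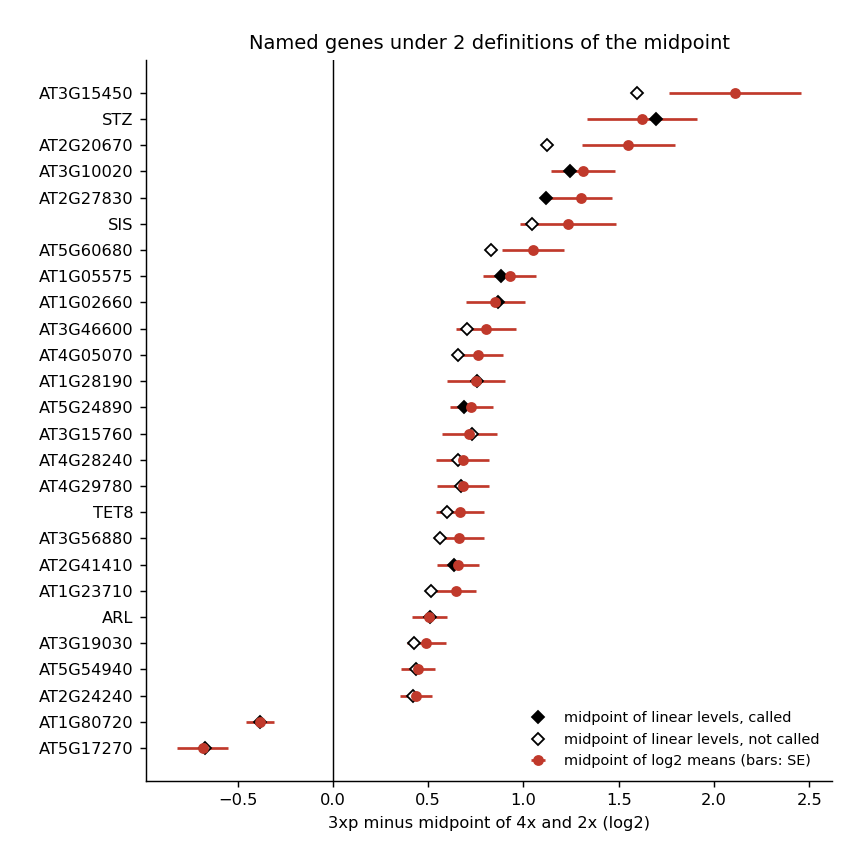
Departures of the 26 named genes called against the midpoint of log2 means (red circles, bars are the SE) beside those against the midpoint of unlogged levels (diamonds, filled where called). The axis is 3xp minus midpoint in log2 units, and 8 of the 24 rises and 1 of the 2 falls stay called with the unlogged midpoint, while AT3G15450 and AT2G20670 move the most, to 1.60 and 1.12.

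The falls were few and small. AT1G80720, of the mitochondrial glycoprotein family, stood at 6.30, 6.49, 6.37, 6.63 and 6.41 in 3xp, against 6.79, 6.92, 6.84, 6.65 and 6.76 in 4x and 7.05, 6.76, 6.78 and 6.80 in 2x. All 3xp seedlings lay below the 9 seedlings of 4x and 2x, by 0.0184 at the closest. The difference from the midpoint was −0.38 ± 0.0736 (adjusted p = 0.0343), and it ended in 11 omissions (adjusted p between 0.0529 and 0.122). AT5G17270 stood at 3.92, 4.70, 4.09, 4.69 and 4.29 in 3xp, 4.79, 5.07, 5.07, 4.51 and 4.93 in 4x and 5.42, 5.19, 4.90 and 5.19 in 2x. Only 4x 4 overlapped with 3xp. Its difference was −0.68 ± 0.135 (adjusted p = 0.0364), ended by 12 omissions (adjusted p between 0.0512 and 0.136) and by the unlogged midpoint (adjusted p = 0.0514). Next in p, and not called, were AT4G16563 (−0.79, adjusted p = 0.0581), AT5G66960 (−0.39, adjusted p = 0.0655) and AT3G28720 (−0.31, adjusted p = 0.0704).

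Of the probe sets with no single gene in the annotation, 26 rose, the single one with several genes included, and 6 fell. The 3 largest rises were 267357_at (1.89 ± 0.299, adjusted p = 0.0103), 260287_at (1.72 ± 0.301, adjusted p = 0.0201) and 252415_at (1.65 ± 0.33, adjusted p = 0.0403). Probe set 267357_at stood at 8.85, 8.28, 9.15, 8.57 and 7.87 in 3xp, 7.93, 7.36, 6.48, 7.49 and 6.56 in 4x and 5.67, 6.43, 5.70 and 6.80 in 2x, with 1 overlap between 3xp 5 and 4x 1, and was called under every alternative that could include it (1 probe set per gene keeps single-gene probe sets only). In 252415_at the departure lay mostly in 3xp 3 and 3xp 5, with 4.84, 5.00, 7.38, 4.69 and 6.07 in 3xp, 4.32, 4.19, 3.92, 3.87 and 3.84 in 4x and 3.80, 3.71, 4.03 and 3.92 in 2x. All 3xp seedlings were above the 9 seedlings of 4x and 2x, and 15 omissions ended the call (adjusted p between 0.0501 and 0.0969). The call of 260287_at ended without 3xp 1, 3xp 2 or 3xp 3 (adjusted p between 0.0578 and 0.083). The largest unnamed falls were 256459_at (−0.83 ± 0.157, adjusted p = 0.0292), 263942_at (−0.45 ± 0.0741, adjusted p = 0.0128) and 258164_at (−0.45 ± 0.0844, adjusted p = 0.0275). Their calls ended in 7 omissions (adjusted p up to 0.106), in 1, that of 3xp 1 (0.0536), and in 5 (up to 0.0981).

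No probe set was called above both 4x and 2x by the 2 separate tests (limma, 0 above and 0 below). At an unadjusted p under 0.05 in both tests there were 166 above and 164 below. Taken singly, 3xp minus 4x gave 5 calls (0.022%) and 3xp minus 2x gave 262 (1.15%). Of the 50 rises, 44 were also called against 2x, and so were all 8 falls. The 4x mean lay above the 2x mean in 44 of the rises. Against 4x, 0 of the falls and 2 of the rises were called, and both of these rises were picked out after their values were seen. Probe set 252474_at stood at 8.33, 8.42, 8.47, 8.33 and 8.57 in 3xp, 7.71, 7.87, 7.57, 7.87 and 7.79 in 4x and 8.06, 8.17, 8.0 and 8.18 in 2x. Its 3xp seedlings lay above all 4x and 2x seedlings but shared the range of 3xm, at 8.34, 8.53, 8.32, 8.25 and 8.27, and their mean was 0.66 over the 4x mean (adjusted p = 0.000747) and 0.32 over the 2x mean (adjusted p = 0.0632). Probe set 247543_at differed by 1.07 from 4x (adjusted p = 0.0479) and by 0.74 from 2x (adjusted p = 0.0688). ARL missed both, with 0.58 over 4x (adjusted p = 0.109) and 0.44 over 2x (adjusted p = 0.0717).

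As a plain count with no test, all 5 of the 3xp seedlings lay above all 9 of the 4x and 2x seedlings in 27 probe sets (0.119%) and below them in 17 (0.0747%). With a gap of at least 0.1 log2 units there were 7 and 2. Among the 58 called, 11 of the rises and 4 of the falls were separated in this way. Of the 12 separated upward with 1 gene, the widest gaps belonged to AT4G39780 (0.0933), AT3G15760 (0.0925), AT1G28190 (0.0804), AT3G10020 (0.0651), AT1G56300 (0.0599) and AT2G02370 (0.0397). AT3G15760 stood at 7.05, 6.56, 6.22, 6.37 and 6.24 in 3xp, 5.76, 5.83, 5.66, 5.71 and 5.15 in 4x and 5.79, 5.72, 6.04 and 6.12 in 2x. AT1G28190 stood at 5.23, 5.26, 5.42, 5.83 and 5.79 in 3xp, 4.92, 5.15, 4.83, 4.50 and 4.79 in 4x and 4.92, 4.78, 4.49 and 4.50 in 2x. In AT1G28190 4x and 2x shared 1 range, while in AT3G15760 they overlapped only in part. AT4G39780 (0.38, adjusted p = 0.587), AT1G56300 (0.66, adjusted p = 0.0919) and AT2G02370 (0.18, adjusted p = 0.389) were separated but not called against the midpoint. Downward, the 7 with 1 gene included AT5G02360, AT1G80720, AT2G10370, AT1G09300, AT2G04050 and AT2G07140, with gaps between 0.00271 and 0.0312, and only AT1G80720 of these was called. AT5G02360 and AT2G10370 averaged 2.67 and 2.51 in 3xp, near the dim end of the arrays.

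The same 3xp seedling did not lead throughout. Among the 50 rises seedling 3xp 1 was the highest of the 5 in 15, 3xp 3 in 14 and 3xp 5 in 13. Seedling 3xp 5 was also the lowest in 22, among them AT3G10020, AT2G27830, AT2G20670, AT5G60680, SIS, ARL and AT1G02660, while it was the highest for STZ. The median departure over the 50 lay between 0.705 and 0.905 log2 units in the 3xp seedlings, against 0.175 to 0.548 in 4x and −0.551 to −0.232 in 2x, which describes the choice of these probe sets and is no test. Each of the 50 had all 5 of its 3xp seedlings above the midpoint, and each of the 8 falls all 5 below it. The choice of these probe sets by their departure from that midpoint favours this, so it is likewise no test.

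Whether a departure was particular to the paternal-excess triploids was tested against the maternal-excess triploids, since the midpoint cancels in that difference. Of the 58 probe sets 1 passed, which was also the only one of all 22746 (0.0044%). This was 245668_at, not named in the annotation used here, at 6.07, 5.82, 5.98, 5.63 and 5.82 in 3xp, 4.98, 5.11, 4.81, 5.18 and 4.83 in 3xm, 5.30, 5.67, 5.09, 5.46 and 5.18 in 4x and 4.40, 4.68, 4.65 and 4.68 in 2x. All 3xp seedlings lay above all 3xm and 2x seedlings, and 1 of 4x reached into their range. Seedling 3xm 4, which had chromosome 4 raised by 0.301, was the highest of 3xm for this probe set and, at 6.82, for STZ. Its part in the comparison was not tested, for this probe set or for the named genes. Probe set 245668_at was 0.90 ± 0.1 above the midpoint (adjusted p = 0.000976) and 0.88 ± 0.114 above 3xm (adjusted p = 0.00731). No named gene passed this test, so none of their departures is shown to differ between the 2 kinds of triploid. The 3xm mean lay above the midpoint in 48 of the 50 rises (median 0.387) and below it in all 8 falls (median −0.164). The departures of 3xm and 3xp subtract the same 4x and 2x means. The choice by 3xp therefore favours these counts as well, and they are no test of agreement between the triploids. The 3xp mean was beyond the 3xm mean in all 50 rises and all 8 falls, which their choice by 3xp favours. For 3xm minus midpoint 1 of all 22746 probe sets was called (limma, 0.0044%). STZ averaged 6.59 ± 0.74 in 3xp and 5.97 ± 0.60 in 3xm (difference 0.62, adjusted p = 0.819). AT3G15450 averaged 9.88 ± 0.52 in 3xp and 8.28 ± 0.64 in 3xm (1.60, adjusted p = 0.534). AT3G10020 averaged 8.82 ± 0.37 and 8.14 ± 0.20 in these 2 groups (0.68, adjusted p = 0.616), AT1G05575 5.28 ± 0.15 and 4.30 ± 0.27 (0.98, adjusted p = 0.0698) and ARL 9.25 ± 0.22 and 9.12 ± 0.14 (0.13, adjusted p = 0.88).

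The gene lists were chosen with results of these data known, so their counts are descriptions. Over all probe sets 0.255% were called, so a list of these sizes without a called member stands near that share. The 14 measured genes of 44 listed for carbon starvation and darkness had a median departure of 0.36, beside −0.00358 over all probe sets, with 13 positive. AT3G15450 and AT2G20670 were the 2 called, and both were put in the list after their rise was known. The others were not called, among them AT5G19120 at 10.10 ± 0.32 in 3xp, 10.07 ± 0.45 in 4x and 7.96 ± 0.95 in 2x (1.08, adjusted p = 0.164). IVD, MCCA and MCCB, enzymes that break down leucine, had 0.36, 0.34 and 0.07, and the kinase subunit AKINBETA1 had 0.34, all not called and picked out for their roles after their values were seen. Of 65 rapid stress regulators 19 were measured, and STZ and AT1G05575, also listed with their rise known, were called. The median was 0.0823 with 15 positive, and it was 0.429 when the dimmest 30% of probe sets were left out. AT5G61590, an ERF-type regulator that limits wax synthesis, had 0.92 (adjusted p = 0.106) and ORA47, a regulator of jasmonate synthesis, 0.42 (adjusted p = 0.236). WRKY53, a senescence and defence factor, had 1.01 (adjusted p = 0.659), with 5.62, 4.88, 5.50, 5.01 and 7.86 in 3xp, 5.99, 5.54, 5.35, 5.54 and 4.91 in 4x and 3.78, 3.70, 4.75 and 4.02 in 2x, where 3xp 5 stood far above its group.

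Other low-oxygen genes were not called. Of 39 listed, 20 were measured, AT3G10020, listed with its rise known, was the 1 called, 8 were positive and the median was −0.103. AT1G33055 had 0.55 (adjusted p = 0.215), AT4G33560 −0.67 (adjusted p = 0.276) and AT4G24110 −0.46 (adjusted p = 0.398). PDC2, a pyruvate decarboxylase of fermentation, likewise picked out for its role, had −0.19. None of the 11 measured genes for cold, drought and abscisic acid was called (median 0.198), and COR15A, a chloroplast protein of cold tolerance, had 0.82 (adjusted p = 0.809) with an SD of 0.876 in 3xp, 0.927 in 4x and 1.08 in 2x. Of the 6 auxin response genes none was called (median 0.172), and the largest difference was that of IAA29, an Aux/IAA repressor, at 6.67, 6.27, 6.69, 7.01 and 5.32 in 3xp, 4.75, 5.40, 6.23, 5.53 and 5.20 in 4x and 5.69, 4.65, 4.97 and 4.08 in 2x (1.26 ± 0.307, adjusted p = 0.121). The 3xp seedlings of IAA29 other than 3xp 5 lay above all 9 seedlings of 4x and 2x.

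Lists on parental genomes, pigments and organelles had no called member, which is near the 0.255% called over all probe sets and no result about these genes. The 7 measured genes that are imprinted in the endosperm had a median departure of 0.0873, between −0.0213 and 0.25. DME, the DNA glycosylase that activates imprinted genes by removing methylated cytosine, had −0.29 (adjusted p = 0.466). The 10 flavonoid genes had a median of 0.00445. Of the 69 plastid-encoded genes 52 were positive with a median of 0.0669, and of the 16 mitochondrial ones 8 were, with a median of −0.00644. Seedling means over the plastid-encoded genes overlapped, at 8.80 to 9.33 in 3xp, 8.90 to 9.25 in 4x and 8.25 to 9.30 in 2x. Of the 40 lists, 6 had no measured member and 7 had 1 or 2. In 24 of the 27 with at least 3, no member was called, and the medians of these 24 lay between −0.0988 and 0.263.

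**Figure D5:**
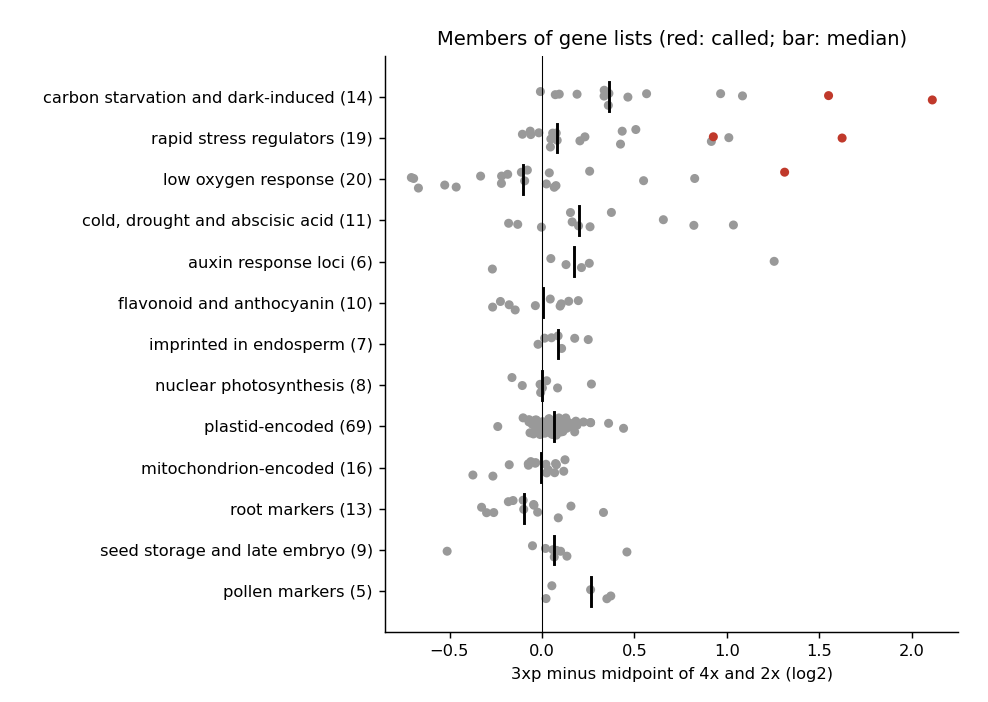
Each point is a gene of the list named on the left (number measured in brackets), placed by its 3xp mean minus the midpoint in log2 units, red where called, with a black bar at the list's median. The called members stand far to the right of their lists' medians of 0.36 (carbon starvation), 0.0823 (rapid stress) and −0.103 (low oxygen). A call needs a large difference, and these members were listed with their rise known, so this position is no test.

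The labelled tissue was matched by its markers. The 8 nuclear photosynthesis genes had a median level of 12.60 in 3xp, 12.64 in 4x and 12.63 in 2x, and their median departure was −0.00254. The 13 root markers, at seedling means of 7.30 to 8.02 in 3xp, 7.54 to 8.34 in 4x and 6.96 to 7.94 in 2x, had a median departure of −0.0988, with 3 positive and none called. The 9 seed storage genes (median 0.0663) and the 5 pollen markers (median 0.263) were mostly dim, at median levels of 3.29 and 3.26 in 3xp, and none was called. The part of tissue proportions in the departures was not tested, and in whole seedlings fewer cells of a type and less RNA per cell cannot be told apart. Median shifts of whole chromosomes lay between −0.016 and 0.0177 in the 14 seedlings, and 3xm 4 was the seedling with a raised chromosome 4 (0.301). Array medians lay between 5.80 and 5.89. The root mean square difference between seedling pairs was 0.27 to 0.475 in 3xp, 0.266 to 0.333 in 4x and 0.231 to 0.405 in 2x, so that no array repeated another and 3xp varied the most among the 3 groups by its median pair (0.401, against 0.277 in 4x and 0.338 in 2x).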

How the data were processed

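The deposited values are log2 expression levels of the authors, made with RMA per the submitters' processing notes. RMA subtracts background, brings all arrays to 1 distribution and reduces the probes to 1 value per probe set. The sources used here give no version, and scanner files were not used here. Values therefore show levels relative to the other transcripts, not amounts per cell or genome copy. The number of arrays limits the precision.

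Of 22810 probe sets 64 controls were set aside. The platform annotation gave 1 gene to 13513, several to 503 and did not list 8730, and 13436 symbols were updated from a RefSeq gene table. Roles of genes are textbook background. Each seedling is a separate plant, per the series' design text.

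The fit took all 19 seedlings, 1 coefficient for each group, moderation by empirical Bayes and p-values adjusted by Benjamini-Hochberg over 22746 probe sets (limma 3.58.1, R 4.3.3). Adjusted p-values come from it, except those given for an omission or for the unlogged midpoint, which come from those runs. For the unlogged midpoint, log2 of the mean unlogged 3xp level minus log2 of the mean of the unlogged 4x and 2x means was tested with the same moderated SE. Levels are means ± SD, differences ± SE. The members, lists and rules were chosen with earlier results of these data known. The plastid, mitochondrial and histone lists were matched anew after the files were seen, by chromosome or symbol, because their first patterns found none or wrong genes. Named were the 12 largest called single-gene differences per direction, the 3 smallest p where fewer than 3 were called, up to 6 separated per direction, up to 4 per list and 3 unnamed per direction. On simulated data of 22746 probe sets, 83% of 100 changes of 1.5-fold and 93% of 100 of 2-fold were recovered in 3xp minus midpoint, with 12 false calls. These rates need not hold for the measured probe sets. There IAA29 (1.26, limma adjusted p = 0.121) and AT5G19120 (1.08, limma adjusted p = 0.164) were not called. The replicate numbers were checked for pairing. Same-numbered seedlings of different groups had correlations of their deviations between −0.375 and 0.4 over 13 pairs, 4 of them over 0.1. Differently numbered seedlings were not compared, so this check cannot decide whether the numbers pair seedlings. Alternatives were the fit to 3 groups, trend and robust moderation, dropping the dimmest 30% of probe sets (mean under 4.07), a further quantile normalization, array weights, a replicate block, the unlogged midpoint, the mean over all 9 reference seedlings, a fold of at least 1.5, 1 probe set per gene, a gap of at least 0.1 and leaving out each seedling. Figures used matplotlib 3.10.9 in Python 3.11.15.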

Additional observations from a re-analysis of the deposited data

Results flagged for a closer look

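In 210 groups of seedlings examined (3 groups for each of the probe sets recomputed), 8 had 1 seedling far from the rest of its group, or 3.81%, where chance gives about 1 in 20. The measure is the gap to the nearest seedling divided by the range of the group. Seedling 3xp 5 stood high for WRKY53, at 7.86 against 5.62 for the nearest (0.752 of the range), and low for 251443_at, at 10.27 against 10.70 (0.783). Seedling 3xp 3 stood high for AT3G46600, at 8.57 against 8.17 (0.747). In 4x, seedling 4x 3 was low for 254919_at, at 8.71 against 9.13 (0.913), and 4x 5 was low for AT3G15760, at 5.15 against 5.66 (0.752). In 2x, seedling 2x 1 was low for 245668_at, at 4.40 against 4.65 (0.896), and high for 258164_at, at 7.31 against 6.98 (0.879), and for AT1G80720, at 7.05 against 6.80 (0.848). The departures of 3xp and 3xm from the midpoint differed in 245668_at, by 0.883 on the log2 scale (limma, adjusted p = 0.00731), with 5 of 5 seedlings of 3xp above all 5 of 3xm.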

How the results depend on the processing

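Against 58 called probe sets, 30 were called with the midpoint of unlogged levels, 88 with array weights (72 higher, 16 lower, 52 of them among the 58) and 19 with 1 probe set per gene, where fewer probe sets were tested. Leaving out each seedling gave 17 to 77. The other alternatives gave 44 to 61, with 53 for the fit to 3 groups, of which 42 were among the 58. With the replicate number as a block 49 were called, 36 of them among the 58. No probe set was called below both 4x and 2x under any alternative. Above both, 2 were called with array weights (247543_at and ARL) and 1 with the replicate block (AT3G15760), and leaving out a seedling gave 0 to 1 (247543_at without 3xp 1, ARL without 3xp 5). Probe sets with separated seedlings numbered 9 with a gap of at least 0.1, against 44. The cause of these changes was not tested, except where fewer probe sets or a wider gap make them. The 58 departures were recomputed 1650 times in all, of which 1174 stayed called, 476 did not and 0 changed sign. Called under every alternative run for them were 8, namely AT2G27830, AT3G10020, AT1G05575 and AT5G24890, and the unnamed 245668_at, 255742_at, 264854_at and 267357_at, for which 1 probe set per gene gives no value. Probe sets near background, such as those under a mean of 4.07, limit what small differences can show.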
